A study of Mus musculus with 2 samples.

Results

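The genes described are 10 members of the pathway that shows intracellular peptides on the cell surface by MHC class I: the heavy chains H2-K1 and H2-D1, their light chain B2m, the peptide transporter genes Tap1 and Tap2, the loading factor Tapbp, the immunoproteasome subunits Psmb8, Psmb9 and Psmb10, and the transactivator Nlrc5. They were taken by name, as the best known genes of the pathway, from the 31053 genes counted in the series, and all 10 were found. The cells came from 2 libraries, 1 of mice that drank water with metformin and 1 of mice that drank distilled control water. Both libraries hold cells of C57BL/6 mice, a common inbred strain, on day 20 after the mouse glioma line GL261 was injected into the brain. The tumour region was dissected, CD45-high cells (CD45 is the pan-leukocyte phosphatase) were sorted from it, and 10x Genomics 3′ version 3 libraries were made. The labels used here give no number of mice per library, no age, no sex, no metformin dose and no sort gates. Metformin is a biguanide that inhibits complex I of the mitochondrial respiratory chain. γδ T cells and hypoxia of the tumour stand in the title of the series. The class I genes were compared between metformin and control water in each class of immune cell.

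Peptides made by the proteasome in the cytosol are carried into the endoplasmic reticulum by the TAP transporter, a heterodimer of the Tap1 and Tap2 products. Tapasin, the product of Tapbp, bridges the transporter to empty class I molecules, which are a heavy chain held by β2-microglobulin, and helps them take up peptide. Cells exposed to interferons replace catalytic subunits of the constitutive proteasome by the subunits that Psmb8, Psmb9 and Psmb10 encode. NLRC5 is drawn to class I promoters together with RFX factors and raises the transcription of heavy chain, B2m, Tap1 and Psmb9 genes. CD8 T cells read the peptides on class I molecules, and NK cells are held back by class I molecules on their targets. Resting microglia are known for low class I on their surface.

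In GRCm38, the build that the submitters' notes name as mm10, 7 of the 10 genes lie in the major histocompatibility complex on chromosome 17. H2-K1 spans 33996017 to 34000347 on the minus strand and H2-D1 spans 35262730 to 35267499 on the plus strand. Between these lie Psmb9 (34181987 to 34187764, minus strand), Tap1 (34187553 to 34197225, plus strand), Psmb8 (34197721 to 34201454, plus strand) and Tap2 (34203527 to 34216321, plus strand), while Tapbp (33915899 to 33929292, plus strand) lies outside H2-K1. B2m is on chromosome 2 (122147686 to 122153083, plus strand). Psmb10 (105935735 to 105938444, minus strand) and Nlrc5 (94434356 to 94527272, plus strand) are on chromosome 8. Tap1 and Psmb9 face away from each other, with 211 bases between their annotated starts, and their gene models overlap at the 5′ ends. The libraries count 3′ ends, which do not overlap.

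The promoters of H2-K1 and H2-D1 are shown because the levels of both heavy chains followed each other across classes, and that of Tap1 because it is shared with Psmb9, the member whose levels followed Tap1 most closely. Sequences are RefSeq windows on GRCm38.p6 from 250 bases before to 50 bases after an annotated start, and 8 of the 10 members had one. They are chr17:34000298-34000597 on the minus strand for H2-K1, chr17:35262844-35263143 on the plus strand for H2-D1 and chr17:34187306-34187605 on the plus strand for Tap1. Capitals mark the κB palindrome, which is the first run of capitals in both heavy chain lines, a match to the interferon response type element GAANNGAAA, and the CRE half-site TGACG, each searched on both strands.
H2-K1: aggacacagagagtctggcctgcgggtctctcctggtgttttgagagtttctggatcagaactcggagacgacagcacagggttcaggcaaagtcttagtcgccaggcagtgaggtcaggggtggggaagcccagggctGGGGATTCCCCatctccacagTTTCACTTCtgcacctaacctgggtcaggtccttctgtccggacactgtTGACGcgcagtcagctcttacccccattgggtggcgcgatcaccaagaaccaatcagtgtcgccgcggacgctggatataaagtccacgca
H2-D1: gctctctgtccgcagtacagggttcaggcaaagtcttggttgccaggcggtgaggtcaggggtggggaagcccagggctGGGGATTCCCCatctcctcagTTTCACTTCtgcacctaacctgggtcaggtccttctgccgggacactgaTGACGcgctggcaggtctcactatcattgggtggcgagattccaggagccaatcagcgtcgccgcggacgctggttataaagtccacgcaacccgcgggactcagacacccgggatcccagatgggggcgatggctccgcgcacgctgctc
Tap1: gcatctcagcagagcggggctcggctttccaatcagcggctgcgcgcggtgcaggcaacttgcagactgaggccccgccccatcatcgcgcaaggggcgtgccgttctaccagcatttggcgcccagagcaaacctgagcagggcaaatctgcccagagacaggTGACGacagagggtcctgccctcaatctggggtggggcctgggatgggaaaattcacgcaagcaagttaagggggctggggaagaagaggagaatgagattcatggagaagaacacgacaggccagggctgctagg
The H2-K1 and H2-D1 windows held the κB palindrome, then the interferon response type element, then the CRE half-site, in the same order and without overlap. Their longest identical run was 47 bases, at bases 110 to 156 of the H2-K1 window and 50 to 96 of the H2-D1 window, and it takes in the κB palindrome. That palindrome was in 0.0304% of 32851 promoter windows of 300 bases, the interferon response type element in 7.52% and the CRE half-site in 20.8%. The windows of Tap1 and Psmb9 share 275 of their 300 bases. The Tap1 window held the CRE half-site but neither of the other motifs, which says only that those letters are not in it.

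Levels below are UMIs of a gene per 1000000 UMIs of the class in a library (CPM). Each level and each ratio of metformin over control water carries a 95% interval that covers counting error only, treats every UMI as independent and leaves out differences between cells, mice and sorts. With 1 library in each group, the treatment could not be tested and every difference lacks replicates; whether mice were pooled is not given. The metformin library held 5473 barcodes with 47142356 UMIs and the control-water library 6174 barcodes with 49651404 UMIs. After filters on genes, mitochondrial UMIs, doublets and haemoglobin, 4565 metformin cells and 5371 control-water cells were used, with medians of 7925 and 7289 UMIs. Ptprc, the gene of CD45, had a UMI in 93.1% of metformin and 92.5% of control-water cells, against 5 of 27 metformin and 3 of 22 control-water cells of a fibroblast-like class that was kept in the sums over all cells. The libraries shared 9 barcodes, of which 8 were retained. Cell classes were rebuilt from the counts without the class I and interferon lists and may differ from those of the study. A class is called like a cell type where its markers fit, the word like is then left out, and other classes carry the names of leading genes. The 14 compared classes, each with 50 or more cells per library, held 4106 metformin and 4896 control-water cells. Shed RNA gave little class I signal: barcodes with over 50% haemoglobin UMIs, 13 in the metformin and 14 in the control-water library, held at most 0.54 UMIs of any member per barcode.

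Among the 14 compared classes the presenting molecules were highest in C4b/Ccl12 microglia and regulatory T-like cells and lowest in naive T-like cells. H2-K1, which encodes the K heavy chain, was at 4977 CPM in metformin and 5149 CPM in control-water regulatory T cells, the FOXP3-expressing cells that restrain other T cells. It was lowest in naive T cells, at 1833 CPM in the metformin library and 1688 CPM in the control-water library. The span from the lowest to the highest class was 2.71-fold in the metformin and 3.05-fold in the control-water library.

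H2-D1, the D heavy chain gene, was highest in C4b/Ccl12 microglia, microglial cells led by complement C4b, the chemokine Ccl12 and C1q genes, at 5906 CPM in the metformin and 5158 CPM in the control-water library. Naive T cells were again lowest, at 1499 CPM in the metformin and 1482 CPM in the control-water library. The same ends of the order held for B2m, at 6378 CPM in metformin and 5913 CPM in control-water C4b/Ccl12 microglia and at 1748.5 CPM in metformin and 1655 CPM in control-water naive T cells. Macrophage-like cells, led by Arg1, Tgfbi and Ly6i, followed in B2m with 5317 CPM in the metformin and 5627 CPM in the control-water library. The other microglia-like class, led by P2ry12, Gpr34 and Tmem119 in its larger cluster, was far below C4b/Ccl12 microglia in H2-K1, at 2017 CPM in the metformin and 1870 CPM in the control-water library. Its B2m was at 3439 CPM in the metformin and 3222 CPM in the control-water library. Of the 13 steps between neighbouring classes, the intervals of 7 metformin and 6 control-water steps overlapped for H2-K1, of 4 metformin and 5 control-water steps for H2-D1, and of 6 metformin and 3 control-water steps for B2m. Those that overlapped include the step between NK-like cells and macrophages for H2-K1 in the metformin library.

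The peptide transporter and tapasin genes had another order, with type 2 conventional dendritic-like cells, macrophages and regulatory T cells near the top. Conventional dendritic cells of this type prime T cells, mostly through class II. Tap1 was at 439 CPM in metformin and 380 CPM in control-water type 2 dendritic cells, and it was low in microglia, at 112 CPM in the metformin and 106 CPM in the control-water library. Tap2 was highest in regulatory T cells, at 222 CPM in the metformin and 237 CPM in the control-water library. All 13 metformin steps and 11 control-water steps between neighbouring classes were not apart for Tap2. Tapbp was highest in macrophages, at 375 CPM in the metformin and 416 CPM in the control-water library, and lowest in naive T cells, at 119 CPM in the metformin and 124 CPM in the control-water library.

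Psmb8 and Psmb9 were highest in type 2 dendritic cells and lowest in microglia and the Il1a/Hmox1 cluster, a group with microglial markers led by Il1a, Hmox1 and Ccl2. Psmb8, which encodes the subunit β5i, was at 1443 CPM in metformin and 1129 CPM in control-water type 2 dendritic cells, and at 276 CPM in metformin and 275 CPM in control-water microglia. Psmb9, the gene of β1i, was at 631 CPM in metformin and 594 CPM in control-water type 2 dendritic cells, and at 115 CPM in metformin and 114 CPM in control-water cells of the Il1a/Hmox1 cluster. Its span was the widest of these subunits, at 5.49-fold in the metformin and 5.19-fold in the control-water library. Psmb10, the gene of β2i, was near its top in both type 2 dendritic cells and macrophages: it was at 421 CPM in metformin and 368 CPM in control-water type 2 dendritic cells, and at 381 CPM in metformin and 403 CPM in control-water macrophages.

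Nlrc5 was sparse in every class and, among the compared classes, highest in T cell classes. It was at 77.7 CPM in metformin and 96.8 CPM in control-water Il17a/Areg lymphocytes, a cluster led by Il17a, Cd163l1 and Trdc. In CD8 T-like cells it was at 72.8 CPM in the metformin and 74.3 CPM in the control-water library. In microglia it was at 15.2 CPM from 72 UMIs in the metformin and 13.7 CPM from 95 UMIs in the control-water library. The span of Nlrc5 was 5.11-fold in the metformin and 7.06-fold in the control-water library, but 12 metformin and 11 control-water steps were not apart.

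**Figure D1:**
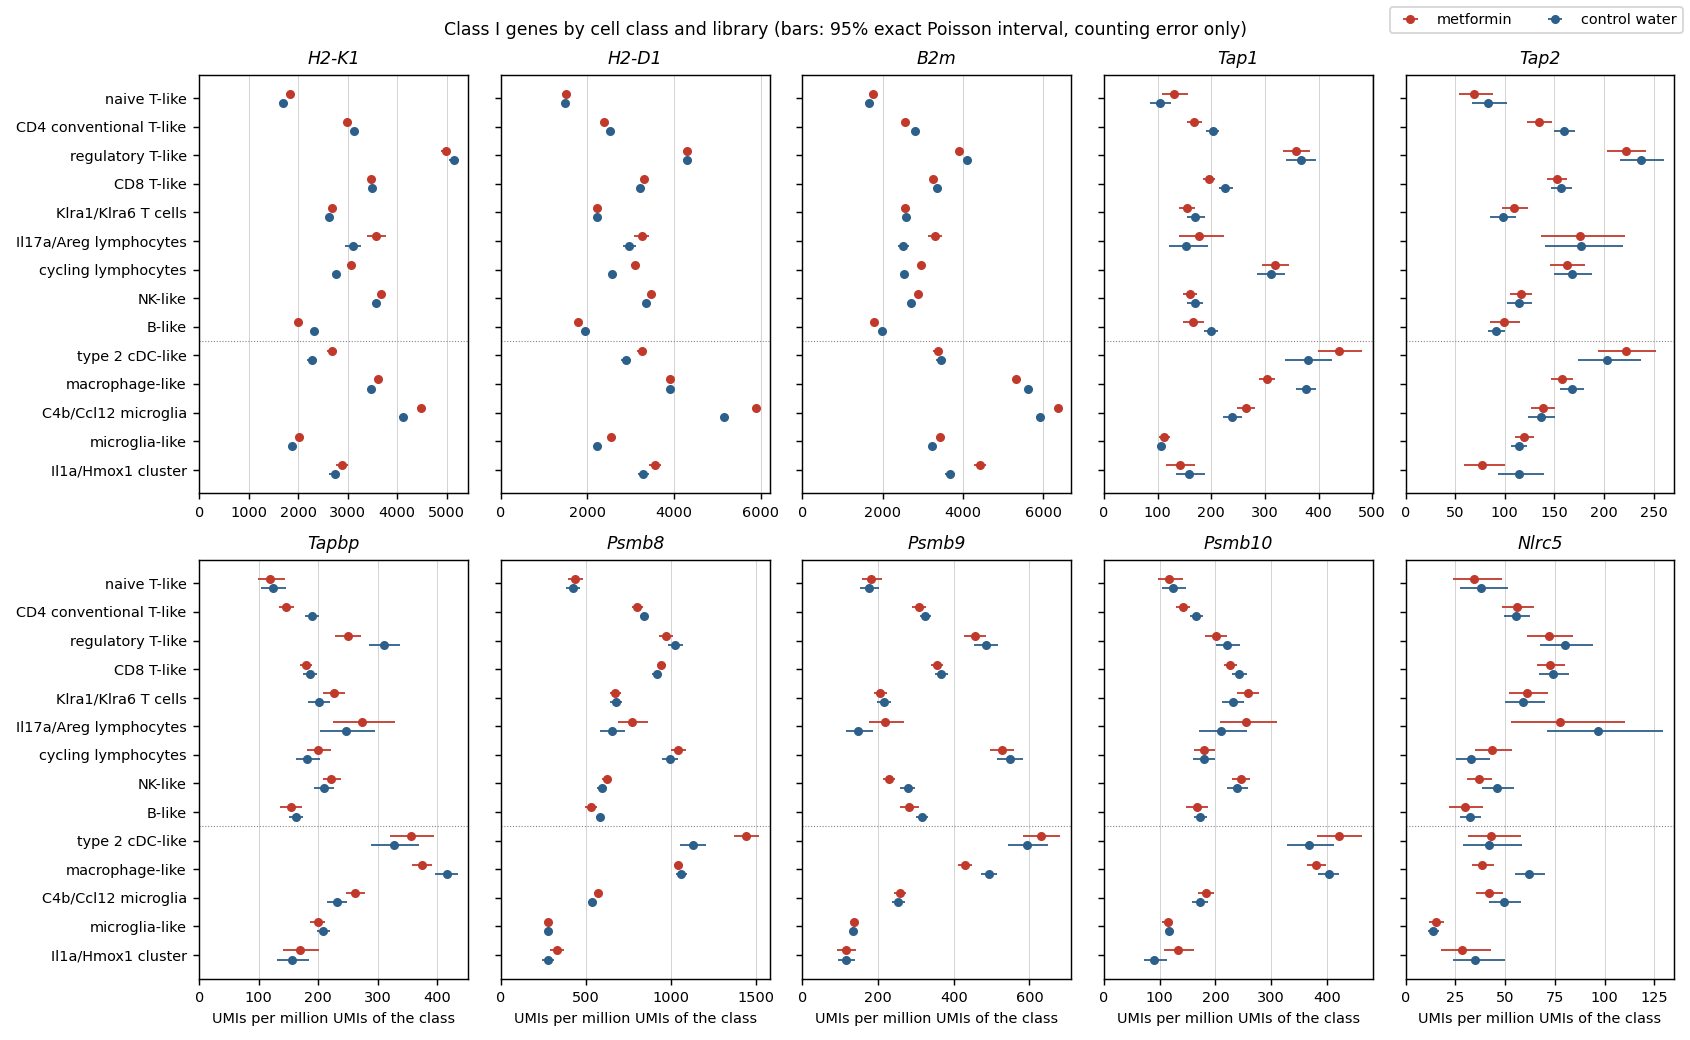
Levels of the 10 genes (CPM, UMIs per 1000000 UMIs of the class, horizontal axis from 0) in 14 cell classes, with metformin in red above control water in blue, and bars for the 95% exact Poisson interval of 1 library each. Presenting molecules peak in regulatory T cells and C4b/Ccl12 microglia, while Tap1, Psmb8 and Psmb9 peak in type 2 dendritic cells (cDC); the dotted line parts lymphoid from other classes.

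Some classes had too few cells to be compared and are given as values. Mature dendritic-like cells, 66 in the metformin and 44 in the control-water library, held much class I RNA, with H2-K1 at 5304 CPM in the metformin and 4958 CPM in the control-water library. Their B2m was at 6730 CPM in the metformin and 6052 CPM in the control-water library, and their Psmb8 at 2345 CPM in the metformin and 2060 CPM in the control-water library. These levels were above those of all 14 compared classes in each library for B2m and Psmb8. Their Nlrc5, at 101 CPM from 57 UMIs in the metformin and 139 CPM from 48 UMIs in the control-water library, was above that of all compared classes too. Fibroblast-like cells, 27 in the metformin and 22 in the control-water library, were low in all presenting molecules, with H2-K1 at 845 CPM in the metformin and 816 CPM in the control-water library. Type 1 conventional dendritic-like cells, known for cross-presentation to CD8 T cells, numbered 48 metformin and 16 control-water cells and had Psmb8 at 1772 CPM in the metformin and 1588 CPM in the control-water library. Their H2-K1 was at 1616 CPM in the metformin and 1824 CPM in the control-water library, below the level of naive T cells in the metformin library.

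Some of the 10 genes were most like other genes of the pathway in their levels over the classes, and others were not. These are correlations of log2(CPM + 1) over 28 points, 14 classes in each library, among 5420 genes, and points of 1 library share its depth and preparation. They are descriptions without a test. H2-K1 was most like H2-D1 (Pearson correlation 0.87), and H2-D1 most like B2m (0.903). Tap1 was most like Psmb9 (0.889), its neighbour across the shared promoter, then Psma5 (0.878), a proteasome core gene, and Bak1 (0.868). The 3 genes most like Psmb8 were Sem1, a component of the proteasome lid, the proteasome activator Psme2 and Nedd8, all at 0.95. The genes most like Nlrc5 were Gbp6, Gbp8 and Gbp4, guanylate-binding proteins induced by interferon-gamma, at 0.849, 0.849 and 0.839. Psmb10 was most like Ifi35 (0.897) and the activator Psme1 (0.893). B2m was most like Lgals3bp (0.909), ahead of H2-D1. Psmb9 was most like Ddt (0.9295) and Mrpl14 (0.921), then Psmb8 (0.911), and Tap1 was not among its first 3. The gene most like Tap2 was Socs2 (0.864) and the gene most like Tapbp was Eif4ebp1 (0.847). Lgals3bp, Ddt, Mrpl14, Socs2 and Eif4ebp1 are in none of the class I, proteasome and interferon lists. Presenting molecules and immunoproteasome genes were less alike: within the metformin library B2m and Psmb8 had a correlation of 0.123 over 14 classes, and within the control-water library 0.194. For H2-K1 and Psmb8 it was 0.486 within the metformin and 0.478 within the control-water library.

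The 2 heavy chains took different shares of UMIs in lymphoid and other cells. H2-K1 made up 49.7% to 55.6% of the UMIs of H2-K1 and H2-D1 in the 9 lymphoid classes of the metformin library, and 51.2% to 55.4% in those of the control-water library. In the 5 other classes its share was 43.1% to 48.0% in the metformin and 44.2% to 47.0% in the control-water library. Among these 14 the lymphoid and other classes did not overlap in either library. The exact binomial interval was above 50% in 8 of 9 lymphoid classes and below 50% in 5 of 5 other classes in each library. Classical monocyte-like cells, 14 in the metformin and 44 in the control-water library, had 29.8% in the metformin and 29.7% in the control-water library, below all compared classes. Mature dendritic cells, with 49.2% in the metformin and 51.1% in the control-water library, were near 50% and above the 5 non-lymphoid classes compared. Mast cells, 14 in each library, had 44.1% in the metformin and 50.7% in the control-water library. How well the kit captures each transcript was not measured, so the share is set between classes and not read as more of a chain. Words of 60 bases at the 3′ ends, 500 bases of each gene's transcript, were shared with other genes for 4.99% of H2-D1 and for none of H2-K1, but reads of near-identical class I genes may still be split by the authors' counting.

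Immunoproteasome genes made up most of the catalytic subunit UMIs in nearly all classes. The share of Psmb8, Psmb9 and Psmb10 among these genes and the constitutive Psmb5, Psmb6 and Psmb7 was 76.9% in the metformin library (interval 76.6% to 77.2%) and 76.8% in the control-water library (interval 76.5% to 77.1%). Among the 14 compared classes the share was lowest in the Il1a/Hmox1 cluster, at 61.2% in the metformin and 60.9% in the control-water library, and in microglia, at 67.0% in the metformin and 66.8% in the control-water library. Among those classes it was highest in type 2 dendritic cells, at 82.9% in the metformin and 82.7% in the control-water library. In macrophages the share was 79.3% in the metformin (interval 78.6% to 80.0%) and 81.8% in the control-water library (interval 81.0% to 82.5%), and these intervals do not overlap. By subunit pairs in macrophages, Psmb8 was 87.5% in the metformin and 89.2% in the control-water library of itself and Psmb5, the subunit it replaces. Psmb9 was 65.8% in the metformin and 70.4% in the control-water library of itself and Psmb6, and Psmb10 was 77.3% in the metformin and 79.9% in the control-water library of itself and Psmb7. In CD8 T cells, the cells that read class I, it was 78.3% (77.5% to 79.0%) in the metformin and 79.9% (79.0% to 80.6%) in the control-water library, and the intervals are apart by a small margin. In CD4 T cells it was 75.1% (74.0% to 76.2%) in the metformin and 77.3% (76.4% to 78.2%) in the control-water library, again with intervals apart. In the other compared classes the intervals overlapped. Outside the compared classes, mature dendritic cells had 87.5% in the metformin and 85.4% in the control-water library, and fibroblast cells 52.3% in the metformin and 49.4% in the control-water library.

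**Figure D2:**
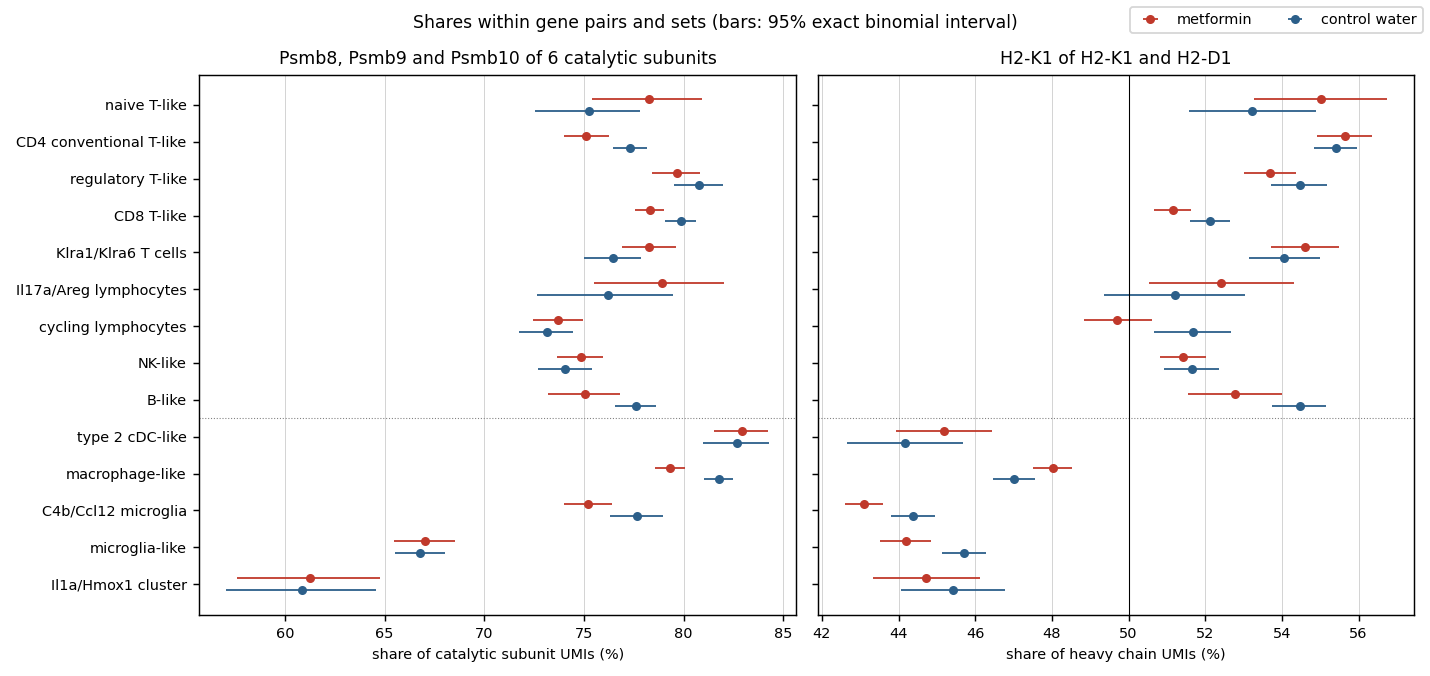
Left, share (%) of Psmb8, Psmb9 and Psmb10 in the UMIs of 6 catalytic subunit genes; right, share (%) of H2-K1 in the UMIs of H2-K1 and H2-D1, by class, with metformin in red above control water in blue and 95% exact binomial intervals. All 5 classes below the dotted line have an H2-K1 share under 50%, and the Il1a/Hmox1 cluster and microglia have the lowest immunoproteasome shares.

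Over all cells, 9 of the 10 genes were slightly higher in the metformin library. H2-D1 was at 3311 CPM in the metformin and 2913 CPM in the control-water library, a ratio of 1.14 (interval 1.13 to 1.15), the largest of the 10. Psmb8 had a ratio of 1.12, H2-K1 of 1.10, B2m and Psmb10 of 1.08, Psmb9 and Tap2 of 1.07 and 1.06, and Tapbp and Tap1 of 1.05. Nlrc5 was at 44.9 CPM in the metformin and 45.9 CPM in the control-water library (ratio 0.98, interval 0.92 to 1.04) and was under the minimum level of 50 CPM. All 9 genes above it had an interval above 1, as did 32.6% of the 2935 genes at that level. Intervals narrow as UMIs rise, and H2-K1, H2-D1 and B2m were far above the 50 CPM minimum. Such shares of all genes with an interval clear of 1, here and in the classes below, are therefore no background at like depth. None was 1.2-fold higher or lower with an interval without 1, against 3.82% of genes higher and 3.51% lower.

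The mix of classes also differed between the libraries. The metformin library held 249 B cells and 708 microglia, classes low in H2-K1, and the control-water library 658 B cells and 984 microglia. The part of any 1 class in the sums over all cells was not tested. With both libraries set to the pooled shares of the classes, the ratios ran from 0.909 for Nlrc5 to 1.06 for H2-D1. Of the 9 ratios above 1 over all cells, 5 were then under 1: Tap1 had 0.961, Tap2 0.997, Tapbp 0.973, Psmb9 0.973 and Psmb10 0.991. The UMIs of the 3 presenting molecules together had a ratio of 1.10 over all cells and of 1.03 at pooled shares, and those of the 6 processing genes 1.09 and 0.994.

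Class by class, few pairs of a gene and a class differed by more than counting error and 1.2-fold. Of 140 pairs 132 were at the level minimum, and of these 6 were higher and 8 lower in the metformin library. Among all 39055 pairs at or above 50 CPM and 20 UMIs in 1 library, 6.44% were higher and 7.96% lower, so the counts over all classes are no result about class I. At 1.5-fold none was higher and 1 was lower, Nlrc5 in macrophages, against 1.81% of all pairs higher and 1.94% lower. That pair met the 50 CPM minimum only through the control-water library. The share of all genes past 1.2-fold is given beside each class.

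**Figure D3:**
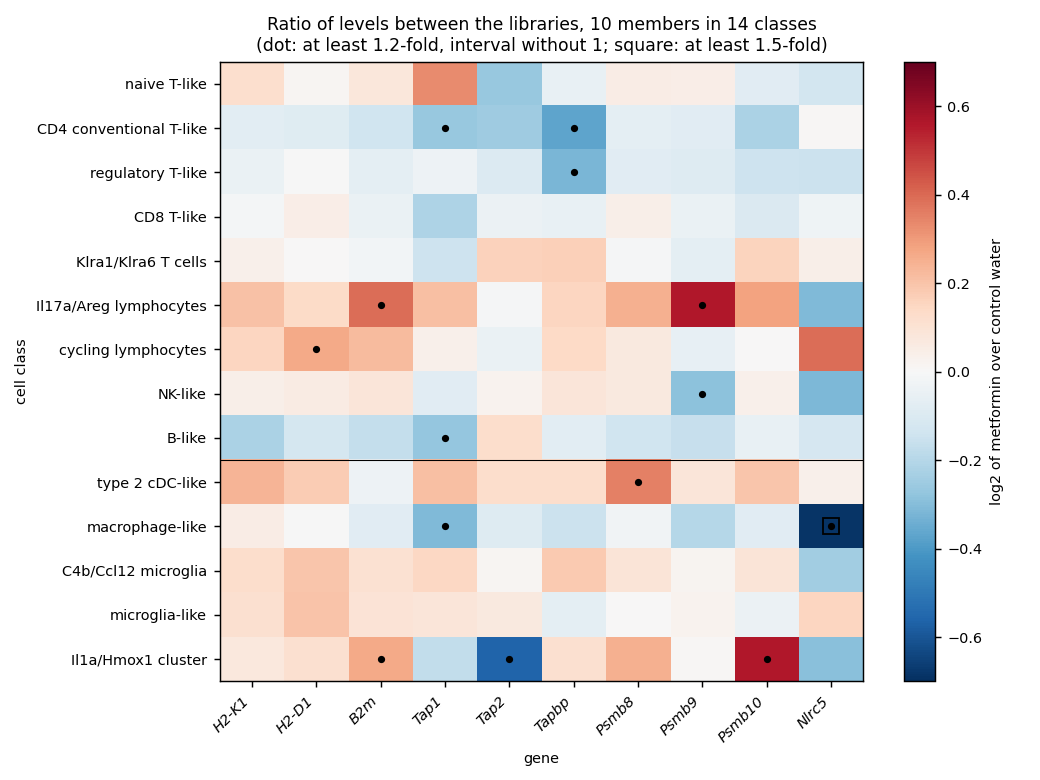
Log2 of the ratio of metformin over control water (colour, red higher and blue lower) for 10 genes (columns) in 14 classes (rows, lymphoid above the line). Dots mark the 14 pairs at least 1.2-fold apart with an interval without 1, and the square marks Nlrc5 in macrophages, the pair past 1.5-fold.

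Among the pairs past 1.2-fold, the largest fold was in macrophages. Nlrc5, the transactivator of class I genes, was at 38.6 CPM from 197 UMIs in 350 metformin macrophages and at 62.2 CPM from 270 UMIs in 371 control-water macrophages (ratio 0.62, interval 0.51 to 0.75). Nlrc5 met the minimum of 50 CPM there only through the control-water library, an entry that favours a low ratio. Tap1 was also lower, at 304 CPM in the metformin and 377 CPM in the control-water library (ratio 0.81, interval 0.75 to 0.86). Of 10 genes, 2 were lower by 1.2-fold and none higher, against 14.9% of genes lower and 9.99% higher in that class, and 1 was lower by 1.5-fold, against 1.63% lower and 1.81% higher. At any size the interval was below 1 for 5 genes, against 23.4% of all genes, and above 1 for H2-K1, against 20.1%. Psmb9 had a ratio of 0.87, Tapbp of 0.90 and B2m of 0.94, while H2-K1 (1.04), H2-D1 (0.997) and Psmb8 (0.983) were close to 1.

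The macrophage classes of the libraries also differed in depth and in other markers. The median was 13219 UMIs in metformin and 10280 UMIs in control-water macrophages. The 8 classical monocyte markers, all detected in both libraries, summed to 4166 CPM in the metformin and 5581 CPM in the control-water library (ratio 0.75). The macrophage markers, 10 of 11 detected with Cd163 at 0 in both, summed to 36100 CPM in the metformin and 29530 CPM in the control-water library (ratio 1.22). NK markers, 8 of 8 detected, summed to 64.3 CPM in the metformin and 20.5 CPM in the control-water library. The part of these markers in the class I differences was not tested.

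In the other 13 compared classes the interval of Nlrc5 took in 1. Outside them, Nlrc5 had a ratio of 0.46 (0.25 to 0.86) in type 1 dendritic cells, from 28 metformin and 21 control-water UMIs. Parts of compared classes went both ways. An NK cluster led by Klra4 and Ncr1 had 0.57 (0.35 to 0.90), and a CD8 cluster led by Gramd3 and Nr4a2 had 2.14 (1.16 to 4.21). Macrophages were also parted at 11703 UMIs, their median over both libraries. Nlrc5 was at 30.2 CPM in 204 metformin and 49.3 CPM in 157 control-water macrophages at or above it (ratio 0.61, interval 0.48 to 0.79). Below it Nlrc5 was at 72.0 CPM in 146 metformin and 85.6 CPM in 214 control-water macrophages (ratio 0.84, interval 0.62 to 1.13). Shallower macrophages thus held more Nlrc5 relative to their UMIs in both libraries, and the ratio was clear of 1 only in the deeper ones. Tap1 had a ratio of 0.84 at or above the median and 0.85 below it, with both intervals below 1. Tap2 turned, with 0.87 (0.77 to 0.98) at or above the median and 1.24 (1.03 to 1.49) below it.

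Genes induced by interferons were lower in metformin macrophages in larger numbers than the class I genes. Of 26 measured genes known to be induced by type I interferon, 25 were above the level minimum and 23 were lower by 1.2-fold. Their median log2 ratio was -0.42, against -0.004 over all genes. Of all genes in macrophages, 14.9% were lower and 9.99% higher by 1.2-fold, and these shares apply to each list below. How many list genes met the minimum only through the control-water library was not counted. Ifit2, an RNA-binding antiviral protein, was at 153 CPM in the metformin and 286 CPM in the control-water library (ratio 0.54, interval 0.49 to 0.59), and Mx1, an antiviral GTPase, had a ratio of 0.56. Of the interferon-gamma list 11 of 18 genes were lower and none higher, with a median of -0.34. Iigp1, an immunity-related GTPase, was at 130 CPM in the metformin and 234 CPM in the control-water library (ratio 0.55, interval 0.50 to 0.61), and Parp14, Gbp5 and Igtp had ratios of 0.62, 0.63 and 0.65. In the list of class I regulators and interferon signalling 5 of 15 were lower, with a median of -0.24. Among them Socs1, a feedback inhibitor of JAK kinases, had 56.3 CPM in the metformin and 101 CPM in the control-water library (ratio 0.56), and Stat2 and Jak2 had ratios of 0.61 and 0.67. Some list genes share a pathway, so these counts are not independent of each other.

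Other lists of antigen processing had fewer genes past 1.2-fold in macrophages. None of 14 proteasome core, assembly and activator genes was 1.2-fold apart, with a median log2 ratio of 0.06, nor any of the 3 constitutive catalytic subunits, of 7 loading and trimming genes or of 6 other class I chains. Calr, a chaperone of the loading complex, and Hspa5, an endoplasmic reticulum chaperone, had ratios of 1.17 each. H2-Q6, H2-Q7 and H2-T22, class I-like chains whose reads may be split among near-identical genes, had ratios of 0.84, 0.89 and 0.89, all with intervals below 1. Of 3 cross-presentation genes, Lnpep, a peptide-trimming enzyme of endosomes, was lower (0.71, interval 0.63 to 0.80), and Ctss, a lysosomal protease, had a ratio of 0.92 with an interval below 1. At or above the median UMIs, 16 of 22 type I and 14 of 18 interferon-gamma genes were lower by 1.2-fold, against 13.02% of all genes lower there. Below it 8 of 25 type I genes were lower and none higher, against 6.33% of all genes lower. Of 19 interferon-gamma genes there, 3 were lower and 3 higher, with a median log2 ratio of -0.03, so that list went both ways in the shallower macrophages.

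**Figure D4:**
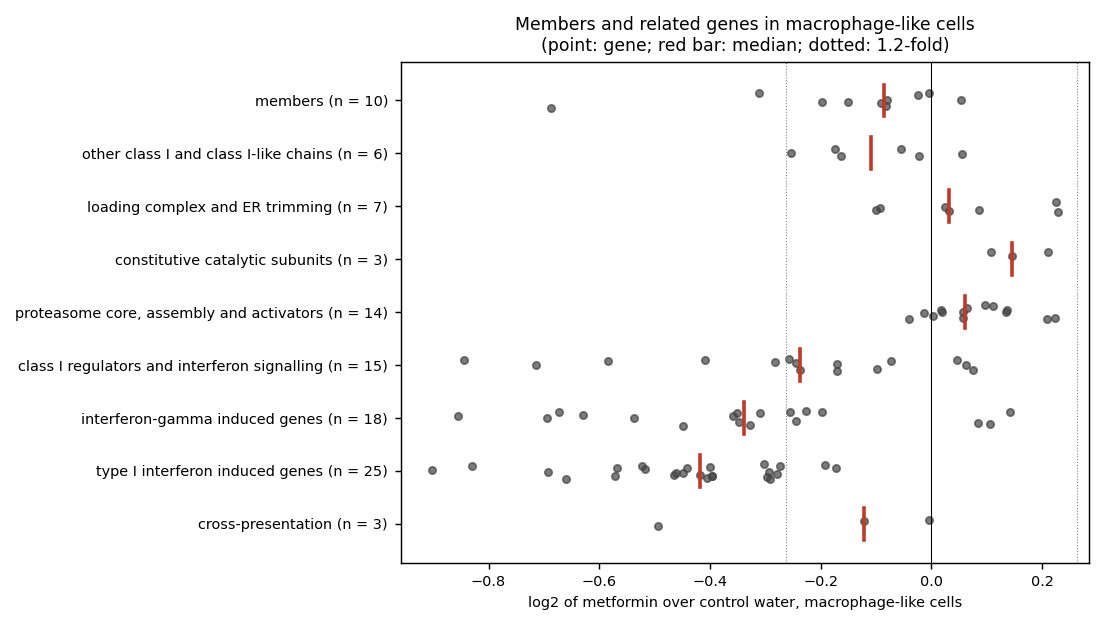
Log2 ratio of metformin over control water in macrophages for each gene above the level minimum (grey points), by list, with the median as a red bar and dotted lines at 1.2-fold either way. The interferon lists lie left of 0, with medians of -0.34 and -0.42, while the proteasome lists lie around or right of 0.

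**Figure D5:**
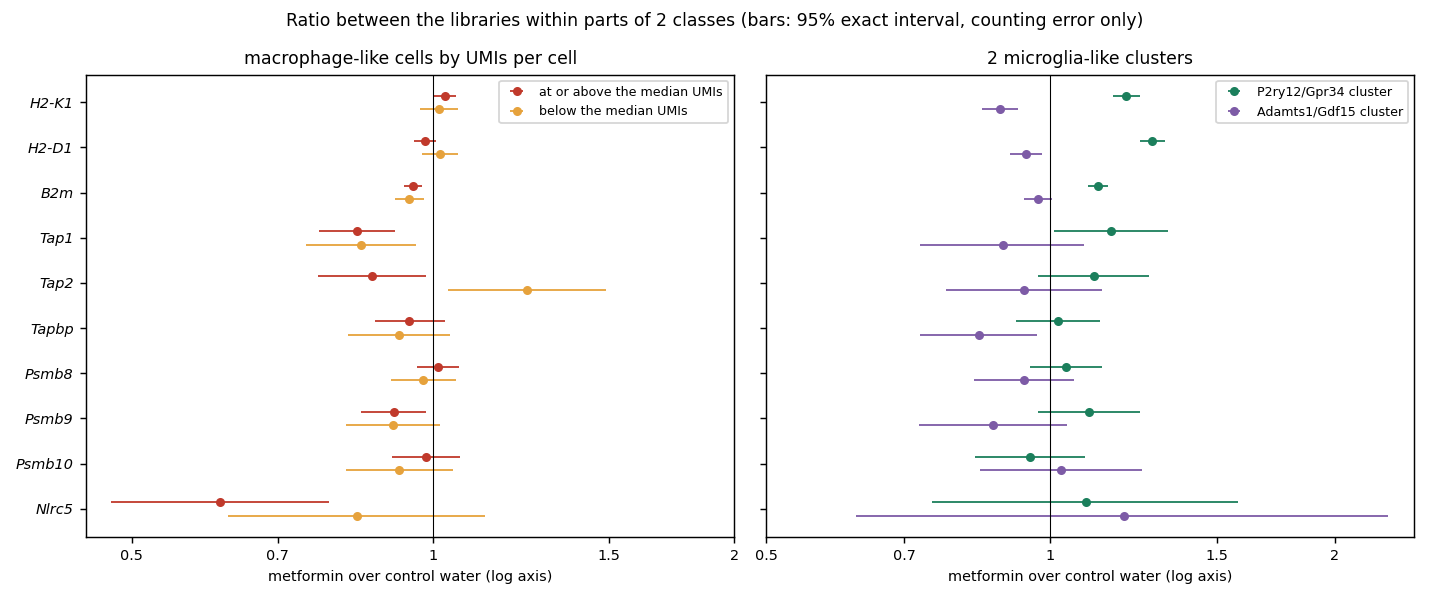
Ratio of metformin over control water (log axis) with 95% exact intervals, for macrophages at or above and below 11703 UMIs (left) and for the 2 microglia clusters (right). Nlrc5 is clear of 1 at or above the median UMIs, and H2-K1 and H2-D1 lie on opposite sides of 1 in the microglia clusters.

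Conventional CD4 T-like cells, taken as helper T cells other than regulatory ones, had nearly all class I genes slightly lower in the metformin library, summed over the class. Tapbp was at 147 CPM in 375 metformin cells and 190 CPM in 631 control-water cells (ratio 0.77, interval 0.69 to 0.86). Tap1 was at 169 CPM in the metformin and 202 CPM in the control-water library (ratio 0.83, interval 0.75 to 0.92). These 2 of 10 genes were past 1.2-fold, against 9.23% of genes lower in the class, and none was higher, against 2.69%. The interval was below 1 for 8 of 10 genes, leaving Psmb9 (0.95) and Nlrc5 (1.004). The share over all genes was 16.2%, but it was not taken at like depth. The Tapbp ratio was 0.74, 0.78 and 0.78 in the 3 clusters of the class. In 1 of them, led by Alas2, Bpgm and Tcf7, only 3 of 7 CD4 T cell markers were over 2-fold above other cells. That cluster held 164 metformin and 215 control-water cells. Its summed processing genes had a ratio of 0.97 (0.91 to 1.03), against 0.84 (0.79 to 0.89) and 0.90 (0.86 to 0.95) in the other clusters. Of the type I interferon list 6 of 14 genes were lower, among them Ifi27l2a (0.78) and Isg15 (0.79), a ubiquitin-like protein, with a median log2 ratio of -0.23 against -0.04 over all genes. That count ran from 1 to 7 over 6 alternatives. Socs1, Irf9 and Ifngr1, genes of interferon signalling, had ratios of 0.69, 0.69 and 0.78. Microglia markers, 10 of 10 detected, summed to 219 CPM in metformin and 145 CPM in control-water CD4 T cells, and their part was not tested.

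In regulatory T cells Tapbp was lower too, at 249 CPM in 262 metformin cells and 311 CPM in 269 control-water cells (ratio 0.80, interval 0.71 to 0.90). It was the only gene of 10 past 1.2-fold there, against 10% of genes lower and 4.46% higher, and H2-K1 had a ratio of 0.97. The Tapbp difference stayed past 1.2-fold in 5 of 12 alternatives, and with each library clustered alone the ratio was 0.94. Of the type I list 6 of 15 genes were lower and none higher there. Cycling markers, 7 of 7 detected, summed to 227 CPM in metformin and 357 CPM in control-water regulatory T cells. CD8 T cells had no gene of 10 past 1.2-fold, against 5.97% lower and 4.63% higher. Their Tap1 was at 195 CPM in 584 metformin cells and 226 CPM in 588 control-water cells (ratio 0.86, interval 0.79 to 0.94), and H2-K1 was at 3462 CPM in the metformin and 3490 CPM in the control-water library. In the CD8 cluster led by Gzmd and Gzmg, with 149 cells in each library, the ratio of H2-K1 was 0.87 (0.85 to 0.91) and that of B2m 0.89. In the largest CD8 cluster, led by Cd8b1, Cd8a and Gzmk, the summed presenting molecules had a ratio of 1.04 (1.02 to 1.06), against 0.91 (0.89 to 0.93) in the Gzmd and Gzmg cluster, and the intervals of the other CD8 clusters took in 1. Cxcl10, a chemokine of the interferon-gamma list, was at 31.8 CPM in metformin and 59.4 CPM in control-water CD8 T cells (ratio 0.54, interval 0.44 to 0.64), and 7 of 18 type I genes were lower, such as Ifit3 and the antiviral enzyme Rsad2 (0.74 each). Irf8, an interferon regulatory factor, had a ratio of 0.68, while the constitutive subunit Psmb7 had 1.24 (1.10 to 1.41). Cxcl10 and Rsad2 met the 50 CPM minimum there only through the control-water library, an entry that favours a low ratio. How many of the 7 type I genes did so was not counted. The type I count ran from 3 to 8 over 9 alternatives. NK markers summed to 3955 CPM in metformin and 5325 CPM in control-water CD8 T cells, classical monocyte markers to 2552 CPM in metformin and 2087 CPM in control-water ones, and B cell markers to 38.5 CPM in metformin and 70.8 CPM in control-water ones, and their part was not tested.

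B cells, antibody-forming lymphocytes low in class I, had less of the presenting molecules in the metformin library. H2-K1 was at 1990 CPM in 249 metformin cells and 2320 CPM in 658 control-water cells (ratio 0.86, interval 0.83 to 0.89), B2m had a ratio of 0.89 and H2-D1 of 0.92. Tap1 was at 166 CPM in the metformin and 200 CPM in the control-water library (ratio 0.83, interval 0.72 to 0.95), the only member past 1.2-fold, against 5.06% of genes lower and 8.33% higher. The interval was below 1 for 6 of 9 genes, against 8.82% of all genes. With a stricter cell filter the ratio of Tap1 was 1.11. Of the type I list 6 of 12 genes were lower and none higher: Ifit3 was at 16.3 CPM from 28 UMIs in the metformin and 59.8 CPM from 272 UMIs in the control-water library (ratio 0.27), and Irf7, which drives type I interferon genes, had a ratio of 0.48. Ifit3 met the 50 CPM minimum there only through the control-water library, an entry that favours a low ratio. How many of the 6 type I genes did so was not counted. Irf9 had a ratio of 0.70, and Ifngr1, a chain of the interferon-gamma receptor, had 1.33 (1.09 to 1.63). Of 7 other class I chains 3 were lower: H2-T22, H2-M3 and H2-Q7, with ratios of 0.65, 0.74 and 0.75. The 8 B cell markers, all detected, summed to 8152 CPM in metformin and 11870 CPM in control-water B cells, and 7 plasma cell markers to 450 CPM in the metformin and 981 CPM in the control-water library, so the classes also differed in their defining genes, and their part was not tested.

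Il17a/Areg lymphocytes, with markers of γδ T cells, had more class I RNA in the metformin library. B2m was at 3297 CPM in 56 metformin cells and 2515 CPM in 69 control-water cells (ratio 1.31, interval 1.21 to 1.42). Psmb9 was at 218 CPM from 87 UMIs in the metformin and 147 CPM from 70 UMIs in the control-water library (ratio 1.48, interval 1.07 to 2.06). H2-K1 had a ratio of 1.15, H2-D1 of 1.10 and Psmb8 of 1.19, so that 5 of 10 genes had an interval above 1, against 6.10% of all genes. Past 1.2-fold were 2 of 10, against 5.03% of genes higher and 6.58% lower. The innate lymphoid markers, which include Areg, were 8 of 8 detected at 4131 CPM in the metformin and 2204 CPM in the control-water library. Macrophage markers summed to 210 CPM with 7 of 11 detected in the metformin and 101 CPM with 5 of 11 in the control-water library. The part of either list was not tested. Of the interferon-gamma list 6 of 16 genes were higher by 1.2-fold and none lower, against the same 5.03% and 6.58% of all genes. The list had a median log2 ratio of 0.51, against -0.03 over all genes. All 6 were also past 1.5-fold, but the share of all genes at that fold is not given for this class. A gene could meet the level minimum through the metformin library alone, an entry that favours a high ratio. How many of the 6 did so was not counted. Of 14 type I genes 2 were higher and 3 lower by 1.2-fold.

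The type 2 dendritic cells had more Psmb8 in the metformin library, at 1443 CPM in 77 metformin cells and 1129 CPM in 67 control-water cells (ratio 1.28, interval 1.18 to 1.39). No other gene of the 9 at the level minimum was past 1.2-fold, against 10.7% of genes higher and 6.63% lower, but H2-K1 (1.18) and H2-D1 (1.13) had intervals above 1 too, 3 of 9 genes with Psmb8, against 12.2% of all genes. Averaged over cells instead of UMIs, the Psmb8 ratio was 1.08. Macrophage markers summed to 1070 CPM in the metformin and 1691 CPM in the control-water class, and their part was not tested.

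NK cells, which kill cells short of class I, had slightly more RNA of the presenting molecules in the metformin library, with a ratio of their summed UMIs of 1.04 (1.03 to 1.06). H2-K1 was at 3673 CPM in 554 metformin cells and 3570 CPM in 390 control-water cells, and the intervals of H2-K1, H2-D1 and B2m, 3 of 9 genes, were above 1, against 7.56% of all genes. Psmb9 was lower, at 228 CPM in the metformin and 278 CPM in the control-water library (ratio 0.82, interval 0.74 to 0.91), 1 of 9 genes, against 4.87% lower and 3.37% higher. It stayed past 1.2-fold in 5 of 12 alternatives. The Psmb9 ratio was 0.83, 0.83 and 0.84 in 3 of the 4 NK clusters, given without intervals, and 1.08 (0.74 to 1.59) in the fourth. The smallest of these 3 held 28 metformin and 34 control-water cells, so its ratio rests on few UMIs. Among interferon genes, Ifi27l2a was at 134 CPM in metformin and 224 CPM in control-water NK cells (ratio 0.60), and Irf7 at 172 CPM in metformin and 140 CPM in control-water NK cells (ratio 1.23). Cycling lymphocytes had H2-D1 at 3094 CPM in 91 metformin cells and 2575 CPM in 74 control-water cells (ratio 1.201, interval 1.156 to 1.248), 1 of 9 genes, against 11.8% higher and 9.22% lower. Of 11 type I genes 3 were higher and none lower. This class mixes lineages in different parts: NK markers summed to 2125 CPM in the metformin and 1035 CPM in the control-water library, and B cell markers to 326 CPM in the metformin and 1080 CPM in the control-water library. In Klra1/Klra6 T cells and naive T cells none of the genes was past 1.2-fold, against 4.72% higher and 7.91% lower in Klra1/Klra6 T cells and 3.36% higher and 5.21% lower in naive T cells.

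Summed over each class, C4b/Ccl12 microglia and the other microglia had more heavy chain RNA in the metformin library. In C4b/Ccl12 microglia H2-D1 was at 5906 CPM in 319 metformin cells and 5158 CPM in 293 control-water cells (ratio 1.15, interval 1.12 to 1.17). There 5 of 9 genes had an interval above 1, against 16.2% of genes, and none was past 1.2-fold, against 9.88% higher and 12.6% lower. Of the type I list 6 of 16 genes were higher and none lower, and of the interferon-gamma list 1 of 12 was higher and 5 lower. Macrophage markers summed to 19690 CPM in metformin and 13560 CPM in control-water C4b/Ccl12 microglia, and microglia markers to 14080 CPM in metformin and 16320 CPM in control-water ones. Other lists differed too. Cycling markers summed to 191 CPM in the metformin and 76.5 CPM in the control-water library, and NK markers to 59.1 CPM in the metformin and 21.25 CPM in the control-water library. The part of these markers was not tested. In the other microglia H2-D1 was at 2548 CPM in 708 metformin cells and 2222 CPM in 984 control-water cells (ratio 1.15, interval 1.12 to 1.17), with 3 of 9 genes above 1, against 8.92% of genes, and none past 1.2-fold, against 2.31% higher and 1.65% lower.

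The 2 clusters of these other microglia differed between the libraries in opposite directions. In the P2ry12/Gpr34 cluster H2-D1 was at 2596 CPM in 497 metformin cells and 2024 CPM in 714 control-water cells (ratio 1.28, interval 1.24 to 1.32), and H2-K1 was at 2087 CPM in the metformin and 1734 CPM in the control-water library (ratio 1.204, interval 1.16 to 1.24). These were 2 of 9 genes past 1.2-fold, against 3.45% of genes higher and 2.41% lower in that cluster. In the cluster led by Adamts1 and Gdf15, which also held Tnf and Ccl3, H2-D1 was at 2460 CPM in 211 metformin cells and 2611 CPM in 270 control-water cells (ratio 0.94, interval 0.91 to 0.98), and H2-K1 was at 1891 CPM in the metformin and 2137 CPM in the control-water library (ratio 0.88, interval 0.85 to 0.92). None was past 1.2-fold there, against 5.05% higher and 5.59% lower. In control-water cells the heavy chains were thus lower in the P2ry12/Gpr34 cluster, and in metformin cells they were slightly higher there. The difference between the clusters was not tested. Of the interferon genes few were at the level minimum in microglia, 5 of the interferon-gamma and 3 of the type I list, and none was past 1.2-fold. The chaperones Canx, Pdia3 and Calr had ratios of 0.86, 0.87 and 0.88 over both clusters.

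The Il1a/Hmox1 cluster differed in both directions. B2m was at 4422 CPM in 63 metformin cells and 3680 CPM in 85 control-water cells (ratio 1.2015, interval 1.144 to 1.2615). Psmb10 was at 133 CPM from 103 UMIs in the metformin and 90.0 CPM from 77 UMIs in the control-water library (ratio 1.48, interval 1.09 to 2.01). Tap2 was at 77.5 CPM from 60 UMIs in the metformin and 114 CPM from 98 UMIs in the control-water library (ratio 0.68, interval 0.48 to 0.94). These were 2 higher and 1 lower of 9 genes, against 8.11% of all genes higher and 10.7% lower. Of 11 type I genes 4 were higher and 1 lower.

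At equal depth, the share of cells with a Tap1 UMI was lower in metformin macrophages and B cells. Cells of a class were thinned to 1 depth, the 10th percentile of the shallower library, and shallower cells were left out. Tap1 had a UMI in 63.9% of metformin and 77.5% of control-water macrophages at 4089 UMIs per cell, and in 35.7% of metformin and 49.0% of control-water B cells at 3671 UMIs per cell. Tapbp had a UMI in 80.5% of metformin and 57.4% of control-water cycling lymphocytes at 7490 UMIs per cell, but at 3745 UMIs, 1 depth for all classes, in 43.3% of metformin and 53.4% of control-water ones. These 3 of 140 pairs of a gene and a class had intervals apart, 1 higher and 2 lower in the metformin library. Only the 10 members were thinned, so no share over all genes stands beside this count, and it is no result about class I. Without thinning Tap1 had a UMI in 92.9% of metformin and 93.3% of control-water macrophages, so the macrophage difference shows only at equal depth, and 1 pair was higher and 1 lower.

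Over all retained cells, the related lists had median ratios near 1. Cxcl9, an interferon-gamma induced chemokine that draws CXCR3-bearing T cells, was at 194 CPM in the metformin and 140 CPM in the control-water library (ratio 1.39, interval 1.35 to 1.44), the only listed gene past 1.2-fold. The median log2 ratio was 0.13 for the 14 proteasome core, assembly and activator genes, 0.08 for 7 other class I chains, 0.09 for 14 interferon-gamma genes and -0.06 for 17 type I genes, against -7.9e-05 for all 2935 genes. These sums carry the same shift in the mix of classes as those of the members.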

How the data were processed

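The files hold UMI counts per gene and cell barcode for both libraries. Per the submitters' processing notes, Cell Ranger, Seurat and the build mm10 were used, with no role given, and the matrices were written by software version 3.0.0, per the file headers. Counts are as deposited by the authors, and no further step is given in the sources used here. Barcodes with under 300 genes or over 10% mitochondrial UMIs were left out. Doublets were called with Scrublet in scanpy 1.11.5 at an expected rate of 5% (37 metformin and 62 control-water barcodes). Cells over 20% haemoglobin UMIs, 4 metformin and 2 control-water, were left out after values were seen. Cells of both libraries were clustered together on 2000 variable genes, which excluded the class I, interferon and antigen-processing lists, with 30 components and 15 neighbours, and named by marker lists.

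UMIs were summed per class and library and given per 1000000 UMIs (CPM). Levels have exact Poisson, shares exact binomial (Clopper-Pearson) and ratios exact conditional binomial intervals, at 95%, computed with scipy 1.17.1. A difference was counted where 1 library had at least 50 CPM and 20 UMIs, the fold was at least 1.2 or 1.5 and the interval was without 1. A gene could thus enter through 1 library alone, which favours a ratio away from 1. How many genes of each list did so was not counted. TMM factors came from edgeR 4.0.16. Members and lists were chosen with earlier results of these data known. Genes of the related lists were named by size of ratio, up to 4 per list and class. Alternatives were other scalings, cell filters, doublets kept, clusterings, thinning, leaving out the richest cell, and macrophages split by UMIs, the last added after seeing the data.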

Additional observations from a re-analysis of the deposited data

Results flagged for a closer look

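H2-K1 and H2-D1 lay on opposite sides of 1 in the 2 microglia clusters. The ratio of metformin over control water was 1.2 for H2-K1 and 1.28 for H2-D1 in the P2ry12/Gpr34 cluster, and 0.885 for H2-K1 and 0.942 for H2-D1 in the Adamts1/Gdf15 cluster. Psmb9 had a ratio of 1.48 in Il17a/Areg lymphocytes and 0.821 in NK cells. With 1 library per group, these differences between cell groups were not tested.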

How the results depend on the processing

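The limits are 1 library per group, few UMIs for Nlrc5 and for the small classes, and classes rebuilt from the counts. No paired analysis was possible because each group has 1 library, and for the same reason no replicate could be left out. The cause of each shift below was not tested. The Tap1 ratio in B cells was 1.11 with the stricter cell filter. At pooled class shares the ratio over all cells was 0.994 for the processing genes, 1.03 for the presenting molecules and 0.909 for Nlrc5, and the immunoproteasome share of the metformin library was 76.4%. The presenting molecules had 1.12 with median-of-ratios scaling, 1.12 with TMM scaling, 1.10 as a mean over cells and 1.09 with no cell filter. The processing genes had 1.11, 1.105, 1.04 and 1.075 under those settings and 1.11 with the stricter filter. As a mean over cells the immunoproteasome share was 75.9% in the metformin and 76.2% in the control-water library. Pairs of a gene and a class higher by 1.2-fold numbered 1 as a mean over cells and 18 with each library clustered alone. Pairs lower by 1.2-fold numbered 5 with TMM scaling, 4 with the stricter filter, 5 with no cell filter, 3 with doublets kept, 4 at lower resolution, 5 with variable genes from all genes and 5 with each library clustered alone. Pairs higher by 1.5-fold numbered 2 with TMM scaling and 1 each when scaled without mitochondrial, ribosomal protein and haemoglobin genes, with median-of-ratios scaling, as a mean over cells, with the stricter filter and without the richest cell. Pairs lower by 1.5-fold numbered 0 as a mean over cells, 2 with no cell filter and 2 with doublets kept. Without thinning 1 share of cells was lower. In macrophages below the median UMIs, 3 interferon-gamma and 8 type I genes were lower. Nlrc5 and Tap1 in macrophages stayed past 1.2-fold in 12 of 12 alternatives, with ratios of 0.567 to 0.686 for Nlrc5 and 0.796 to 0.825 for Tap1. The split of macrophages by UMIs is not among these 12. In that split Tap1 was not past 1.2-fold in either part, with 0.84 at or above the median and 0.85 below it. Nlrc5 had 0.61 at or above the median and 0.84 below it, where its interval of 0.62 to 1.13 took in 1. Of the other pairs past 1.2-fold, Tap2 in the Il1a/Hmox1 cluster and Psmb8 in type 2 dendritic cells stayed in 11 of 12 alternatives, B2m in Il17a/Areg lymphocytes in 10, Psmb9 there in 9, and B2m and Psmb10 in the Il1a/Hmox1 cluster in 7, with Psmb10 at 1.075 with no cell filter. Tap1 in B cells stayed in 6 of 12, and Psmb9 in NK cells, Tapbp in regulatory T cells and H2-D1 in cycling lymphocytes in 5. Of 9 alternatives, Tapbp in CD4 T cells stayed in 6 and Tap1 in 2.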
